A study of Mus musculus with 26 samples.

Results

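The genes described here are 10 genes of the endoplasmic reticulum (ER) protein-folding machinery and its stress response, followed in GnRH neurons and in the surrounding preoptic area of the mouse hypothalamus. They were taken by name from the gene column of the deposited table, and they are Hspa5, Hsp90b1, Calr, Canx, Pdia3, Pdia4, Pdia6, Xbp1, Atf4 and Ddit3. All 10 of 10 were found among 23107 genes, and all 10 passed the filter on low counts that left 16713 genes to test. Other genes of the same pathways, 165 in all, are given as counts.

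GnRH neurons release gonadotropin-releasing hormone and so control the pituitary and the gonads. The mice carried GnRH CRE together with Floxed L10a-GFP, so that a GFP-tagged ribosomal protein was made in GnRH neurons. Ribosomes were captured by their tag from punches of the preoptic area of adult mice aged 55 to 165 days (translating ribosome affinity purification, TRAP). Each pool of 5 to 7 mice gave an immunoprecipitate, enriched for GnRH neurons, and a supernatant, depleted of them. There were 3 pools of intact females in diestrus, 3 of ovariectomized females, 4 of intact males and 3 of castrated males, and both fractions of each pool were sequenced, which makes 26 libraries. Every group, intact or gonadectomized, carried the same Cre and tagged ribosome, and no library came from mice without them.

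Proteins that are secreted or sit in membranes are threaded into the ER, where chaperones hold them, lectins bind their sugar chains and disulfide isomerases pair their cysteines. When unfolded protein builds up, the sensors IRE1, PERK and ATF6 start the unfolded protein response. IRE1 activates XBP1 by splicing its mRNA, ATF6 and XBP1 raise chaperone genes, and PERK slows translation while favouring that of ATF4, which can in turn raise DDIT3 (CHOP). A neuron that makes a peptide hormone sends a precursor through this pathway all the time. Counts per gene do not separate spliced from unspliced Xbp1, and levels of mRNA say nothing of the translational control of Atf4.

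The ER stress response element (ERSE) is the best known promoter element of this response. Promoters of all 10 genes were read from RefSeq (build GRCm38.p6) as windows from 250 bases before to 50 bases after the start. Both strands were searched for the ERSE letters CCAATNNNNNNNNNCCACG, which hold CCAAT and CCACG within them. They were found in 5 of 10 genes, against 39 of 32851 promoters in RefSeq (0.119%), which include those of the members. The element was searched because it is known for this response, so the count is a description and not a test. The 6 matches are printed 5′ to 3′ on the strand that reads CCAAT first, with CCAAT and CCACG in capitals. The other members had no match.
Hspa5, chr2:34772025-34772043: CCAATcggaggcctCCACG
Hsp90b1 distal, chr10:86705638-86705656: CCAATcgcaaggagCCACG
Hsp90b1 proximal, chr10:86705533-86705551: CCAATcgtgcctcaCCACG
Calr, chr8:84847075-84847093: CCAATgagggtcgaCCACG
Canx, chr11:50325800-50325818: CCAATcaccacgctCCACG
Pdia6, chr12:17266491-17266509: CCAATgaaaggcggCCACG
The proximal Hsp90b1 match and the Calr match lie on the strand opposite to the gene. Counted from the RefSeq start, the Hspa5 match runs from base -65 to base -47, the Pdia6 match from -98 to -80 and the Canx match from -145 to -127. The Hspa5 match lies within the longest gene model of GENCODE vM21, which starts further upstream than RefSeq, and the other 5 matches lie upstream of the GENCODE models of their genes.

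Upstream stretches of 250 bases are shown for Hspa5, the gene with the highest enrichment below, and for Hsp90b1, the gene with a pair of matches. Both are on the strand of the gene, with ERSE matches in capitals on whichever strand they lie.
Hspa5, chr2:34771840-34772089, plus strand: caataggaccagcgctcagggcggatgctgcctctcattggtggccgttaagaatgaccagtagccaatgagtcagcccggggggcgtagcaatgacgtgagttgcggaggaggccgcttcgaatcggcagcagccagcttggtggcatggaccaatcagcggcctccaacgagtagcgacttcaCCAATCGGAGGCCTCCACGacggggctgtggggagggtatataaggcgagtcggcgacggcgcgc
Hsp90b1, chr10:86705445-86705694, minus strand: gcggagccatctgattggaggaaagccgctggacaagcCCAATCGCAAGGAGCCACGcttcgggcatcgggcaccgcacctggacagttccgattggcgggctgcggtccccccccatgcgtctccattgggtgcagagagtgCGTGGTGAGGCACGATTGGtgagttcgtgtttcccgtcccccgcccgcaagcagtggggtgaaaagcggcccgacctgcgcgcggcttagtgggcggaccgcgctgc
No member held the unfolded protein response element TGACGTGG, present in 0.676% of all promoters, or the C/EBP-ATF element TGATGNAA, present in 3.97%. The short part CCACG alone was found in 7 of 10 members and in 32.8% of all promoters, and CCAAT in 9 of 10 members and in 37.4%. A match describes the letters in this window and no more.

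In GENCODE vM21 on mm10, Hspa5 lies on the plus strand at chr2:34771970-34777547, Canx on the minus strand at chr11:50293961-50325673 and Ddit3 on the plus strand at chr10:127290774-127296288. The libraries do not mark the strand. Exons of Hsp90b1 share bases with 1810014B01Rik, Gm15344 and Gm25745, those of Ddit3 with Mars and Gm4189, those of Pdia3 with Catsper2 and those of Pdia6 with Atp6v1c2. Reads from those bases cannot be told apart between the genes.

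Total counts per library ran from 27217253 to 56668582. Gnrh1, which encodes the hormone precursor, reached 3174 to 20931 CPM (a gene's count scaled by the library's TMM-adjusted total) where ribosomes were captured, and 47.5 to 1579 CPM in what was left over. Of 14 oligodendrocyte markers, 13 were lower in the immunoprecipitates, as were 8 of 12 astrocyte markers and 6 of 12 microglia markers. Of 14 endothelial and mural markers 6 were higher and 1 lower, and of 12 neuron markers 2 were higher and 5 lower. Among all genes tested 21.3% were called higher and 21.6% lower. Of 6 nuclear and precursor RNAs, 5 were lower and 0 higher. They summed to 2724 to 7080 CPM in the immunoprecipitates and 15634 to 45068 CPM in the supernatants. The fractions thus also differed in this kind of RNA, and its part in the enrichment values was not tested. A supernatant of ovariectomized females, replicate 0, stood apart in nuclear and precursor RNAs (45068 CPM over 6 genes, against at most 22297 CPM in the other supernatants). The supernatant of intact females replicate 2 stood apart in Gnrh1, at 1579 CPM where the other 12 supernatants held 47.5 to 454 CPM. Its 13 GnRH neuron genes summed to 1929 CPM (at most 750 CPM in the others), a sum that includes Gnrh1 and is mostly made of it. The immunoprecipitate of the same pool had the lowest Gnrh1 of all 13, 3174 CPM. An immunoprecipitate of castrated males, replicate 0, stood apart in endothelial markers (506 CPM over 14 genes) and astrocyte markers (2978 CPM over 12 genes).

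The labels also number the libraries. Numbers 1 to 10 cover both fractions of 4 pools, intact female replicates 0 and 1 and intact male replicates 0 and 1, and all other pools are numbered 11 to 30. No gonadectomized pool has a number from 1 to 10. The early pools held 6 or 7 mice and the later intact pools 5. As the plot of levels by library shows, this numbering goes with the level of nearly all members. Main pooled values of the members are therefore accompanied by values from libraries 1 to 10 or 11 to 30 alone. Calls of enrichment in the gene lists are over all pools only.

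**Figure D1:**
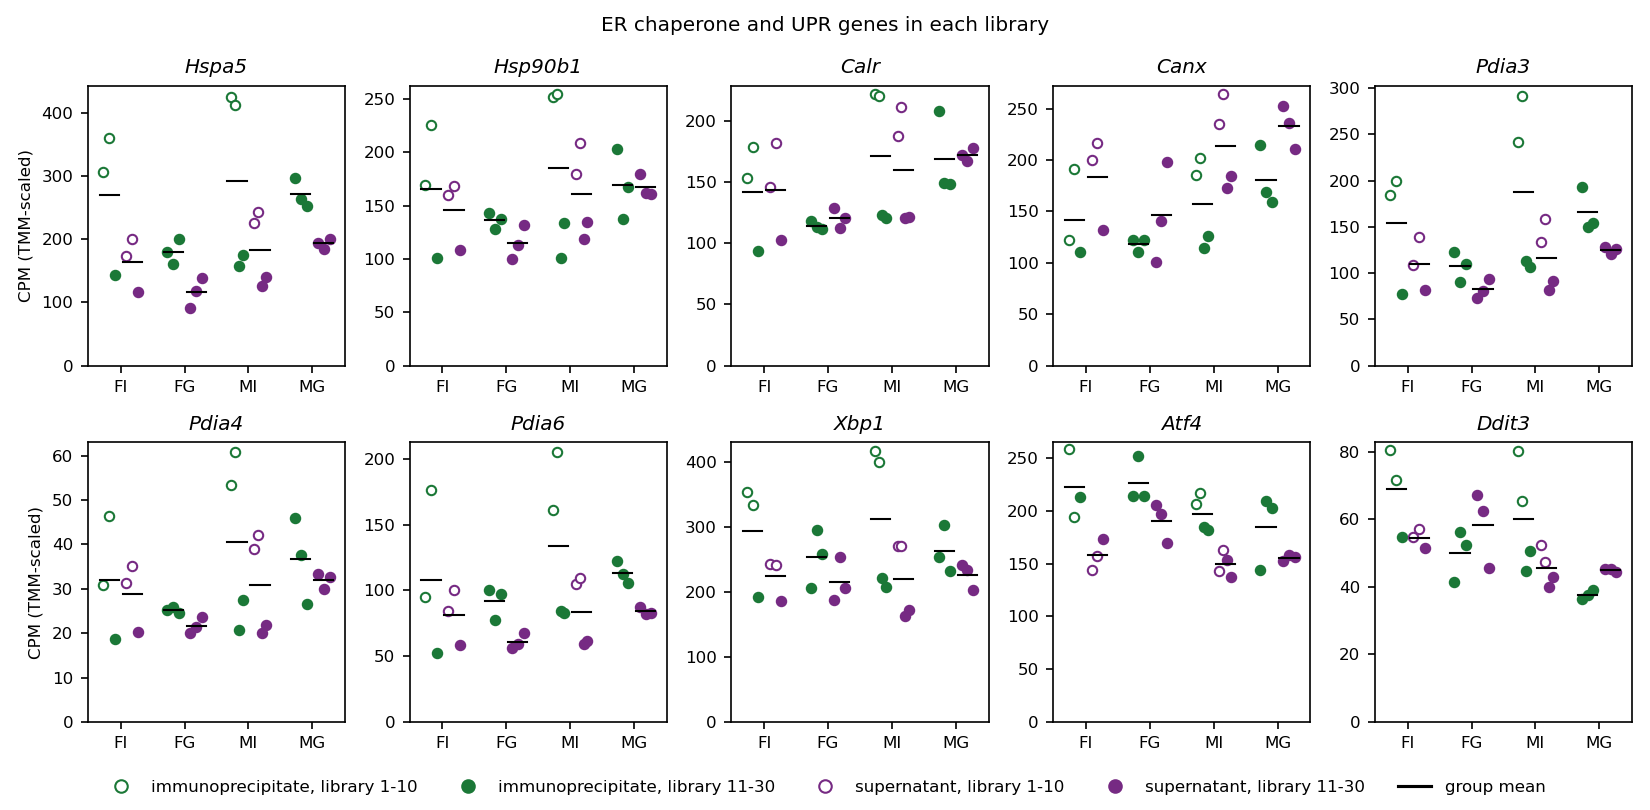
TMM-scaled CPM of the 10 genes in each of 26 libraries, by condition (FI intact females, FG ovariectomized females, MI intact males, MG castrated males). Green marks immunoprecipitates and purple supernatants, open circles are libraries numbered 1 to 10, filled circles 11 to 30, and bars are group means. The 4 immunoprecipitates numbered 1 to 10 stand above the 3 later intact ones for Hspa5, Pdia3, Pdia6 and Xbp1.

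Per kilobase of exon, the transcription factor mRNAs were the most abundant members in the immunoprecipitates, with Atf4 at 87.8 ± 12.4 CPM per kb (SD, n = 13) and Xbp1 at 87.1 ± 23.2. Among the folding factors, Hspa5 followed at 60.7 ± 23.1 CPM per kb, Calr at 52.3 ± 15.1, Pdia3 at 49.8 ± 20.1 and Hsp90b1 at 41.1 ± 13.1. Pdia4 was the least abundant at 14.3 ± 5.59 CPM per kb. In the supernatants the order was again led by Atf4 (68.9 ± 8.48) and Xbp1 (68.1 ± 11.4), with Calr (52.0 ± 12) and Canx (41.7 ± 10.4) next. Most neighbours in these orders differed by less than the larger of their SDs. The exceptions in the immunoprecipitates were the steps from Xbp1 to Hspa5 and from Pdia6 (30.2 ± 11.5) to Pdia4, and in the supernatants those from Xbp1 to Calr, from Ddit3 (29.5 ± 4.72) to Pdia6 (20.8 ± 5.06) and from Pdia6 to Pdia4 (11.9 ± 3.25). Members also differed in how much they varied between pools. The coefficient of variation over the 13 immunoprecipitates was 40.3% for Pdia3, 39.2% for Pdia4 and 38.2% for Hspa5, and 14.2% for Atf4.

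The first comparison asked which of these genes are enriched where GnRH neuron ribosomes were captured. Hspa5, Pdia3, Pdia6, Xbp1 and Atf4 were higher in the immunoprecipitate and Canx was lower, by the edgeR quasi-likelihood test with Benjamini-Hochberg adjustment over 16713 genes. That makes 5 of 10 higher and 1 of 10 lower, where 21.3% of all genes tested were called higher and 21.6% lower. The members had a median log2 difference of 0.29, and all genes tested one of -0.06. With 10 genes, 5 called higher is a small count, and no test compared it with the share among all genes.

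Hspa5 encodes BiP, the HSP70 chaperone of the ER that also holds the stress sensors inactive. Its immunoprecipitate levels ran from 144 to 426 CPM with a median of 253, and its supernatant levels from 90.9 to 242 CPM with a median of 174. The ranges overlapped, but within each pool the immunoprecipitate was higher in 13 of 13 pools, by 0.31 to 0.99 on the log2 scale. The fitted enrichment was 1.55-fold (log2 0.63 ± 0.16 SE, adjusted p = 0.0034). This was the largest enrichment of the 10 genes. Hsp90b1 encodes GRP94, the HSP90 of the ER. It was higher in 9 of 13 pools and did not pass (log2 0.16 ± 0.14, adjusted p = 0.376).

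The lectin chaperones calreticulin (Calr, soluble) and calnexin (Canx, anchored in the membrane) bind the same sugar-trimmed glycoproteins. Calr had nearly equal means in both fractions, 151 ± 43.6 CPM (SD, n = 13) among the immunoprecipitates and 150 ± 34.7 CPM among the supernatants, with an interval of -0.27 to 0.26 for its log2 difference. Canx was the 1 member called lower, at 150 ± 38.3 CPM against 196 ± 48.6 CPM (log2 -0.37 ± 0.12 SE, adjusted p = 0.0154). It was lower in 12 of 13 pools. The exception was replicate 0 of the ovariectomized females, the pool whose supernatant stood apart in nuclear RNA, and without that supernatant the Canx log2 was -0.43 (adjusted p = 0.0053). In the 4 pools numbered 1 to 10 alone, Canx did not pass (log2 -0.33, adjusted p = 0.11).

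Among the disulfide isomerases, Pdia3 (ERp57), the partner of the lectins, ran from 77.8 to 291 CPM in the immunoprecipitates (median 150) and from 73.4 to 158 CPM in the supernatants (median 109). It was higher in 12 of 13 pools (1.41-fold, log2 0.49 ± 0.16 SE, adjusted p = 0.0176). Pdia6 (P5), which also restrains the stress sensors, was higher in 12 of 13 pools as well (1.44-fold, log2 0.52 ± 0.17, adjusted p = 0.0132). For both, the exception was replicate 2 of the intact females, the pool with 1579 CPM of Gnrh1 in its supernatant and 3174 CPM in its immunoprecipitate. The part of that supernatant in these ratios was not tested. Pdia4 (ERp72) was higher in 10 of 13 pools and did not pass (log2 0.24 ± 0.17, adjusted p = 0.268).

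Of the transcription factors, Atf4 was the most uniform. Its levels ran from 144 to 259 CPM in the immunoprecipitates (median 209) and from 137 to 206 CPM in the supernatants (median 158). The enrichment of 1.27-fold (log2 0.35 ± 0.07 SE, adjusted p = 0.000197, 12 of 13 pools) was smaller than that of Hspa5 but had the smallest error of the 10 genes. Xbp1 ran from 192 to 418 CPM against 163 to 271 CPM and was higher in 13 of 13 pools (log2 0.34 ± 0.13, adjusted p = 0.0347). Its call was the least secure: it was lost in 13 of 26 refits that left out 1 library each, with adjusted p of up to 0.066 and a log2 of at least 0.29 in all 26. Ddit3 encodes CHOP, a factor linked to cell death under lasting stress, and showed no difference that passed (log2 0.07 ± 0.09, adjusted p = 0.592).

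**Figure D2:**
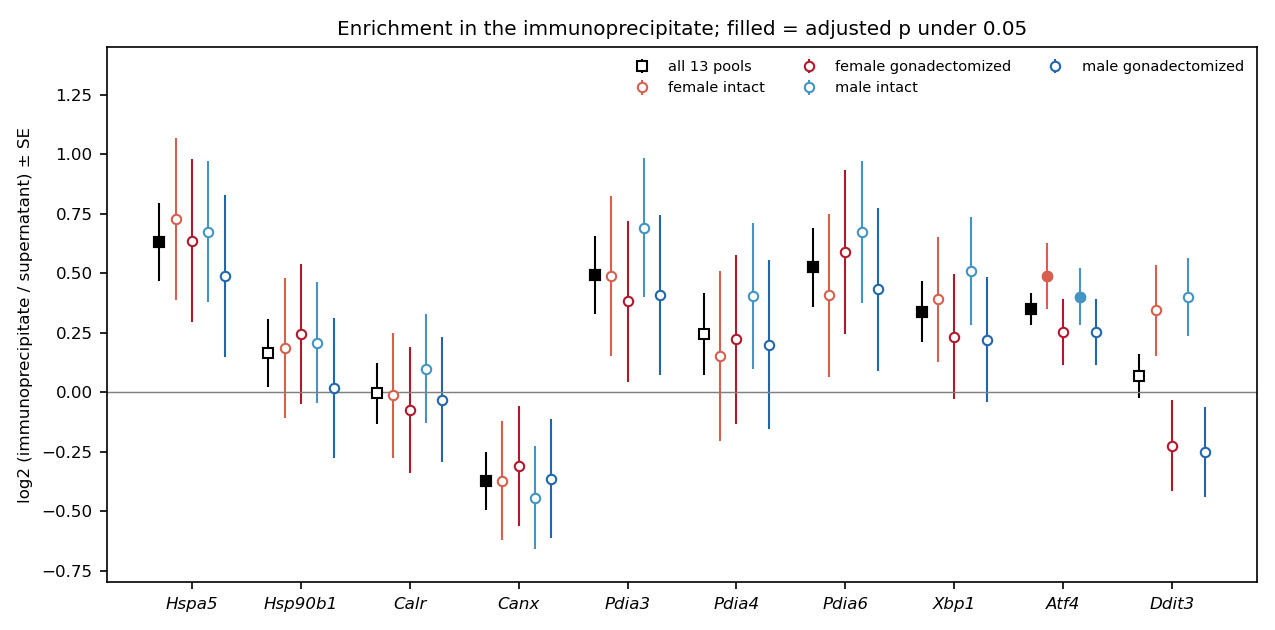
Log2 ratio of immunoprecipitate to supernatant for each gene, with SE bars, over all 13 pools (black squares) and within each condition (circles); filled symbols passed an adjusted p of 0.05. Hspa5 leads at 0.63 over all pools, Canx lies at -0.37, and Ddit3 is above 0 in intact and below 0 in gonadectomized mice.

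Within single conditions, which hold 3 or 4 pools each, few members passed. In intact females 1 member was called (Atf4, log2 0.49 ± 0.14, adjusted p = 0.0181), where 18% of all genes were, and in intact males again 1 (Atf4, log2 0.40 ± 0.12, adjusted p = 0.0164), where 25.9% were. None was called in ovariectomized females (6.28% of all genes; 0 members at an unadjusted p under 0.05, and 0 by DESeq2 and limma voom) or in castrated males (10.7%; 0, and 0 by both tools). Both fractions of a pool come from the same mice, so the pool can serve as a block. With it, 6 members were called in intact males, 2 in intact females, 2 in ovariectomized females and 0 in castrated males, where 25.9%, 18.3%, 6.14% and 10.8% of all genes were. Over all conditions the same 6 members were called with the block, among 20% of genes called higher and 26.2% called lower.

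Hspa5 was positive in each condition, with a log2 enrichment of 0.73 ± 0.34 in intact females, 0.64 ± 0.34 in ovariectomized females, 0.67 ± 0.30 in intact males and 0.49 ± 0.34 in castrated males. None of these passed without the block (adjusted p of 0.0976 to 0.432). Canx was negative in each condition, from -0.44 to -0.31. No difference of enrichment between conditions passed for any member. Among all genes 0% were called for gonadectomy in females, 0% for gonadectomy in males, 0.00598% for sex in intact mice and 0% for sex in gonadectomized mice. DESeq2 and limma voom called 0 members in each of these contrasts. Both sex contrasts held 0 members at an unadjusted p under 0.05 (740 of 16713 genes in intact and 880 in gonadectomized mice). Both gonadectomy contrasts held the same 1 member at that level (1248 genes in females and 1364 in males).

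That member was Ddit3. Its immunoprecipitate levels were 80.7, 71.7 and 54.9 CPM in intact females and 80.2, 65.3, 44.7 and 50.8 CPM in intact males, against 41.4, 56.2 and 52.3 CPM in ovariectomized females and 36.4, 37.7 and 39.1 CPM in castrated males. All 3 castrated male values lay below all 4 intact male values, and the share of all genes that did so was not counted. Its enrichment was 0.34 ± 0.19 in intact females and 0.40 ± 0.17 in intact males, and -0.23 ± 0.19 and -0.25 ± 0.19 in the gonadectomized groups. The difference of enrichment was -0.57 ± 0.27 in females (adjusted p = 0.664) and -0.65 ± 0.25 in males (adjusted p = 0.593). The immunoprecipitate difference in males alone was -0.68 ± 0.22 (adjusted p = 0.525), and within libraries 11 to 30 it was -0.34 (adjusted p = 0.805).

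The largest and most uniform differences among these genes followed the library numbering. Among intact mice, 9 of 10 members were higher in the 4 immunoprecipitates numbered 1 to 10 than in the 3 later ones, and 8 of 10 were higher in the supernatants. The test held the sex as a term and was chosen after the data had been seen. Among all genes 8.20% were called higher in the immunoprecipitates (1261 of 15379) and 12.2% in the supernatants (1968 of 16096). Groups that did not overlap, with the early libraries above, were found for 8 members in each fraction, and for 15.6% of all genes in the immunoprecipitates and 15.1% in the supernatants. Atf4 was the member that passed in neither fraction (log2 0.14 ± 0.11, adjusted p = 0.48 and -0.06 ± 0.08, adjusted p = 0.636).

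In the immunoprecipitates numbered 1 to 10, Hspa5 stood at 307 and 360 CPM in females and at 426 and 412 CPM in males, against 144 CPM in the later female and 158 and 175 CPM in the later male libraries. The sets did not overlap. The difference was 2.40-fold (log2 1.27 ± 0.11 SE, adjusted p = 0.00078). Pdia3 differed 2.42-fold, Pdia6 2.31-fold, Pdia4 2.22-fold and Hsp90b1 2.05-fold, with adjusted p of 0.00078 to 0.0114. Xbp1 was 1.84-fold higher (377 ± 39.2 against 207 ± 15.1 CPM) and Calr 1.78-fold. Canx (1.51-fold, adjusted p = 0.0462) was the 1 called member whose sets overlapped, and Ddit3 was higher by a log2 of 0.53 (adjusted p = 0.0449). One of the 3 later pools is that of intact females replicate 2. Without it, an alternative chosen after seeing the data, 6 members passed in the immunoprecipitates, and Canx (log2 0.67, adjusted p = 0.121), Pdia6 (1.11, 0.0624) and Ddit3 (0.59, 0.124) did not.

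In the supernatants the differences were smaller. Pdia4 differed 1.79-fold, Hspa5 1.67-fold, Pdia6 1.66-fold, Calr 1.6-fold, Pdia3 1.59-fold, Hsp90b1 1.5-fold, Xbp1 1.46-fold and Canx 1.44-fold, none with overlapping sets and all with an adjusted p of at most 0.0019. Ddit3 did not pass (log2 0.18 ± 0.07, adjusted p = 0.0959). Without the pool of intact females replicate 2, the same count of 8 passed. Most members thus differed with the numbering in both fractions, and Atf4 passed in neither.

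**Figure D3:**
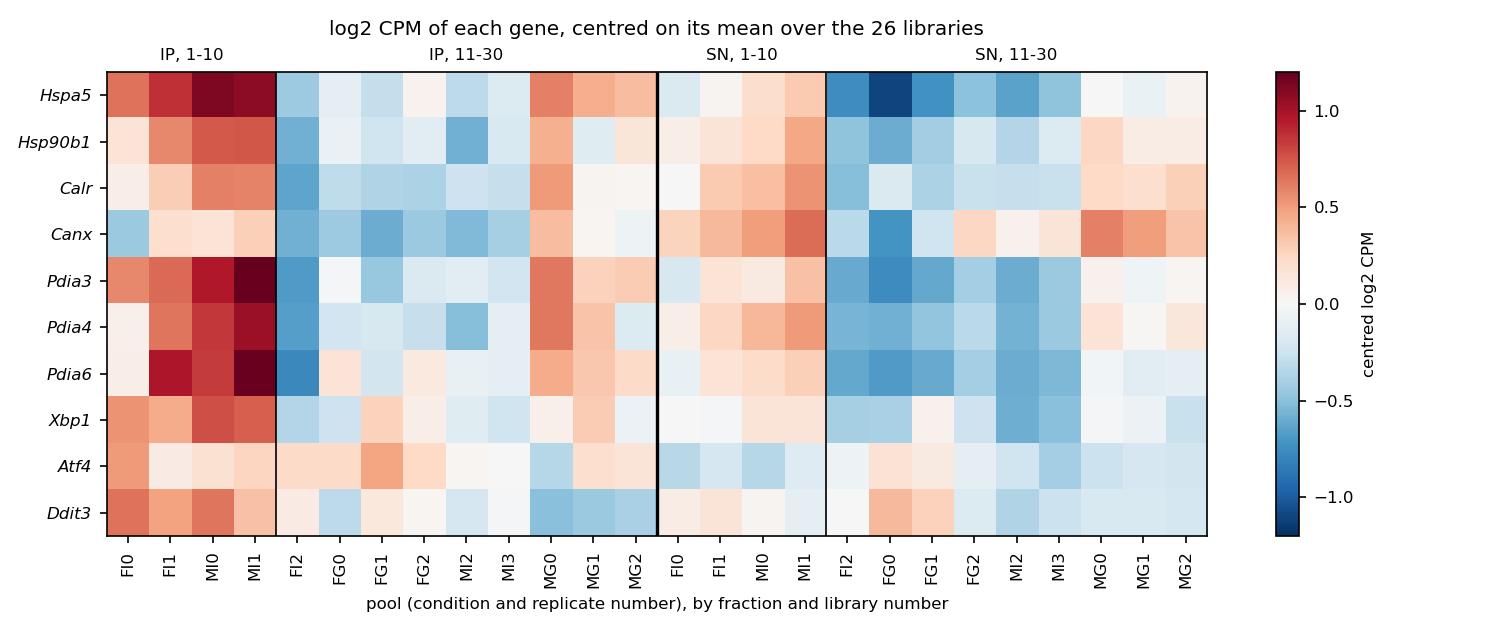
Log2 CPM of the 10 genes in 26 libraries, each gene centred on its mean; columns are pools by fraction (IP immunoprecipitate, SN supernatant) and library number. Warm colours gather in IP libraries 1 to 10, for Ddit3 too (0.35 to 0.65 above its mean). In the castrated male IPs (MG0 to MG2) they hold for Hspa5 (0.37 to 0.60), Pdia3 (0.27 to 0.63) and Pdia6 (0.23 to 0.44). Hsp90b1, Calr, Canx and Pdia4 are warm in MG0, but near or below their mean in MG1 or MG2 (Canx 0.02 and -0.06). In the castrated male SNs Hspa5 lies near its mean (-0.08 to 0.04) and Canx above it (0.34 to 0.605), and Atf4 does not follow the chaperones.

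Enrichment itself also differed with the numbering. In the interaction of fraction and numbering among intact pools, Hspa5 was enriched by 0.52 ± 0.12 more on the log2 scale in pools numbered 1 to 10 (adjusted p = 0.0174) and Pdia3 by 0.60 ± 0.15 more (adjusted p = 0.0251). The other 8 members did not pass, and 6.97% of 16380 genes were called higher. Without the pool of intact females replicate 2, Hspa5 passed (0.62 ± 0.15, adjusted p = 0.0414) and Pdia3 did not (0.64 ± 0.20, adjusted p = 0.0926). Fitted alone, the 4 early pools, all of intact mice, gave Hspa5 a log2 enrichment of 0.89. They called Hspa5, Pdia3, Pdia6, Xbp1, Atf4, Ddit3 and Hsp90b1 higher, against 19.1% of genes called higher and 18.2% lower. The fit of the later pools also averages over gonadectomized mice, so these fits differ in condition as well as in numbering. The 9 later pools gave Hspa5 0.44 (adjusted p = 0.0011) and also called Pdia3, Pdia6 and Atf4 higher and Canx lower, against 13.5% higher and 13% lower.

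Other values moved with the numbering. Gnrh1 was 4.73-fold higher in the early immunoprecipitates (18980 ± 2130 against 4106 ± 808 CPM). Together with Gnrh1, which makes up most of the sum, the 13 genes known from GnRH neurons summed to 17905 to 21983 CPM against 3716 to 5255 CPM. Of these 13 genes, 6 were called higher and 0 lower, where 8.20% of all genes were called higher. Their log2 differences were positive for 9 and negative for 4, with a median of 0.77. Oligodendrocyte markers summed to 1378 to 1566 CPM in the early immunoprecipitates and 1616 to 1946 CPM in the later intact ones. Microglia markers lay the other way in the same immunoprecipitates, at 66.1 to 111 CPM in the early and 56.8 to 63.2 CPM in the later intact ones. In the supernatants, astrocyte markers summed to 1504 to 1657 CPM against 1208 to 1260 CPM, microglia markers to 95.6 to 149 CPM against 73.5 to 94.3 CPM, and neuron markers to 6280 to 6702 CPM against 7148 to 8091 CPM. There too, nuclear and precursor RNAs summed to 18840 to 22297 CPM against 15634 to 18160 CPM, and ependymal and tanycyte markers to 98.3 to 127 CPM against 72.3 to 92.3 CPM. None of these lists had a marker at 0 in all libraries of a set. Their part in the result was not tested, and neither was that of pool size. In pooled tissue, fewer cells of a type and less RNA per cell cannot be told apart.

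The next comparisons asked what sex and gonadectomy do within each fraction, and no member passed in any of the 8. Among all genes, the immunoprecipitates gave 0% called for gonadectomy in females and in males, 0.0248% for sex in intact mice and 0.0186% for sex in gonadectomized mice. The supernatants gave 0.0122%, 0%, 0.0428% and 0.0428% in the same order. At an unadjusted p under 0.05 there were 8 members for sex in gonadectomized supernatants and at most 1 in each other comparison. Among all genes, 3445 of 16360 reached that level for sex in gonadectomized supernatants, and 446 to 1509 in the others. For sex in gonadectomized supernatants DESeq2 called 2 members, where it called 7.93% of all genes. It called 0 in the others, and limma voom called 0 in all 8. Data of the same size were also simulated with few genes changed. Changes of 1.5-fold were recovered there for 14.9% of changed genes in the sex comparison of gonadectomized supernatants. In the comparison of castrated with intact male immunoprecipitates 0% were recovered. Changes of this size were thus mostly missed in that setting. The share recovered depends on how many genes change, so it may differ in the real comparisons.

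Castrated males had higher chaperone levels than ovariectomized females in the supernatants, without overlap. Hspa5 stood at 195, 185 and 201 CPM in castrated males and at 90.9, 118 and 139 CPM in ovariectomized females (log2 0.72 ± 0.24 SE, adjusted p = 0.117). All 7 chaperones and isomerases were on the same side without overlap, where 13.9% of all 16360 genes were higher in castrated males without overlap and 12.2% lower. The members lay apart by log2 values of 0.45 (Pdia6) to 0.72 (Hspa5), with adjusted p of 0.117 to 0.259. Atf4 (log2 -0.31 ± 0.11, adjusted p = 0.128) and Ddit3 (-0.39 ± 0.14, adjusted p = 0.128) lay the other way, again without overlap, and Xbp1 lay between (0.06 ± 0.18). The comparison was broad, since 3445 of 16360 genes had an unadjusted p under 0.05.

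All 6 of these supernatants are numbered 11 to 30, so the numbering does not separate them, but the main test takes its spread from the early libraries too. With the spread taken from libraries 11 to 30 alone, 4 members passed: Hspa5 (log2 0.76, adjusted p = 0.0387), Calr (0.54, 0.0381), Pdia3 (0.62, 0.0381) and Pdia4 (0.59, 0.0438), where 1.6% of all genes did. With the numbering as a term in the model, all 7 chaperones and isomerases passed (adjusted p of 0.0107 to 0.0454), where 6.60% of all genes did. Without replicate 0 of the ovariectomized females, the supernatant high in nuclear RNA, Hspa5 stood at a log2 of 0.59 (adjusted p = 0.458). Without replicate 2 of that group, Hspa5 (0.88, adjusted p = 0.0385), Canx (0.93, 0.012), Atf4 (-0.39, 0.0207) and Ddit3 (-0.54, 0.0064) passed.

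Markers of other cells lay apart in the same supernatants. Oligodendrocyte markers summed to 3135 to 3324 CPM in castrated males and 2604 to 2864 CPM in ovariectomized females, endothelial and mural markers to 118 to 140 CPM and 55.5 to 101 CPM, and meningeal and choroid markers to 134 to 156 CPM and 61.5 to 105 CPM. No marker of the first and second list was at 0 in all libraries of a group, and 1 of 10 in the third was in the ovariectomized females. Other lists lay the other way, with ependymal and tanycyte markers at 87.1 to 100.02 CPM in castrated males and 107 to 138 CPM in ovariectomized females, and blood markers at 49.1 to 59.1 CPM and 60.2 to 160 CPM, none of them at 0 in all libraries of a group. The castrated male pools held 5 mice and the ovariectomized female pools 7. Their part in the difference was not tested. In the immunoprecipitates the sex difference had the same direction (Hspa5 at 296, 264 and 253 CPM against 180, 161 and 201 CPM, log2 0.59 ± 0.37, adjusted p = 0.679), and castrated males were higher without overlap for 6 of the 7 chaperones and isomerases, where 11.5% of 16160 genes were higher without overlap and 10.3% lower. Meningeal and choroid markers summed to 92.0 to 162 CPM in these castrated male libraries and 46.7 to 78.4 CPM in the ovariectomized female ones, and their part was not tested.

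**Figure D4:**
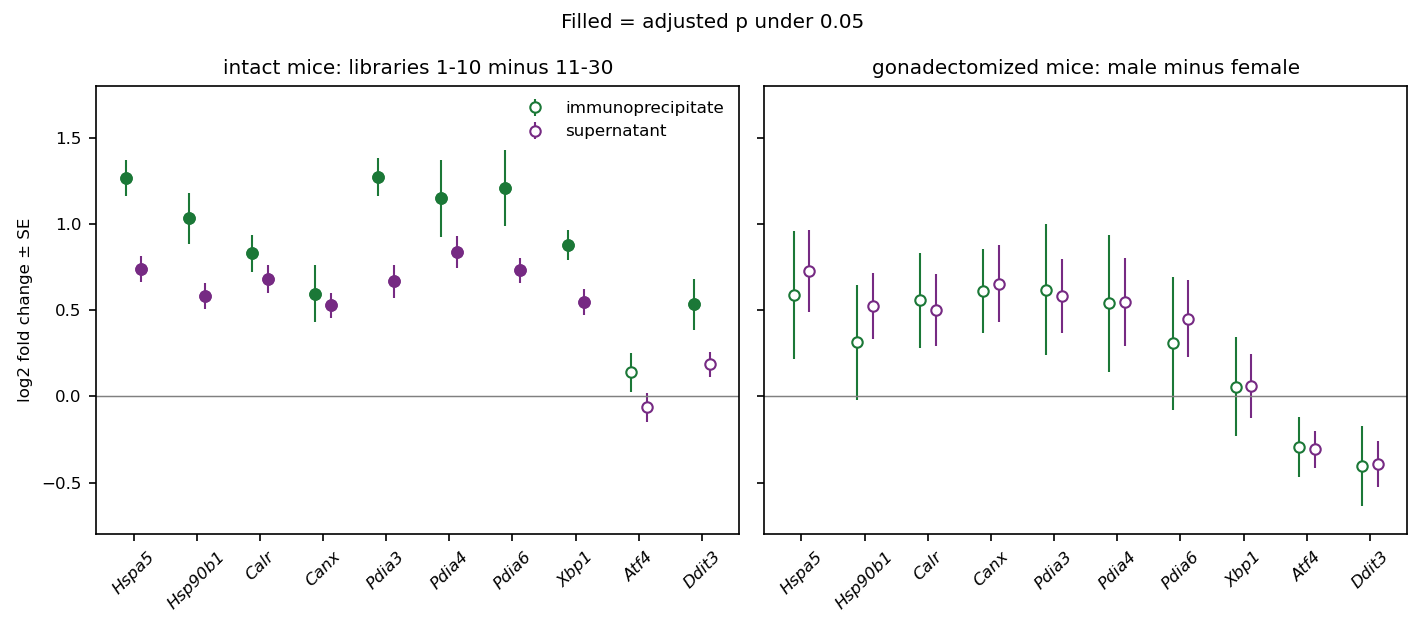
Log2 fold changes with SE bars in immunoprecipitates (green) and supernatants (purple), for libraries 1 to 10 minus 11 to 30 among intact mice (left) and males minus females among gonadectomized mice (right); filled circles passed an adjusted p of 0.05. On the left 9 and 8 of 10 genes are filled and Atf4 is near 0, and on the right no circle is filled.

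For gonadectomy in males, values over all pools differed from values in libraries 11 to 30 alone. The part of the numbering and of pool size in this was not tested. Over all pools, Hspa5 differed by -0.11 ± 0.35 on the log2 scale between castrated and intact male immunoprecipitates (adjusted p = 0.945), and by 0.08 ± 0.22 in the supernatants (adjusted p = 1). In libraries 11 to 30 alone, with 3 castrated and 2 intact male pools, the Hspa5 values were 0.70 in the immunoprecipitates (adjusted p = 0.803) and 0.56 in the supernatants (adjusted p = 0.334), so the sign turned in the immunoprecipitates. All 7 chaperones and isomerases were positive there, between 0.44 (Pdia6) and 0.70 (Hspa5) in the immunoprecipitates and between 0.40 (Canx) and 0.63 (Pdia4) in the supernatants, and none passed. Over all pools, 6 of these 7 were negative in the immunoprecipitates, Canx being the exception at 0.20.

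The levels in the later libraries were also compared pool by pool. In the supernatants, every castrated male pool lay above every other later pool for all 7 chaperones and isomerases, as it did for 8.54% of all genes. Calr, for example, stood at 167 to 177 CPM in castrated males, 120 and 121 CPM in intact males, 112 to 129 CPM in ovariectomized females and 102 CPM in the intact female pool. In the immunoprecipitates the same held for Hspa5, Calr, Canx, Pdia3 and Pdia6 (4.89% of all genes), and Ddit3 was below every other later pool (3.71% of all genes). Xbp1 did not separate from ovariectomized females in either fraction, and Atf4 and Ddit3 were below them in both. With 2 later pools of intact males and 1 of intact females, these comparisons have little replication.

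Markers of other cells also lay higher in the castrated male supernatants than in the 2 later intact male ones. Oligodendrocyte markers summed to 3135 to 3324 CPM against 2510 to 2890 CPM, astrocyte markers to 1428 to 1689 CPM against 1249 to 1260 CPM, and microglia markers to 121 to 142 CPM against 78.6 to 94.3 CPM. Endothelial and mural markers summed to 118 to 140 CPM against 50.8 to 97.7 CPM, and meningeal and choroid markers to 134 to 156 CPM against 79.0 to 117 CPM. None of these lists had a marker at 0 in all libraries of a set. Blood markers summed to 49.1 to 59.1 CPM in castrated males and reached 2983 CPM in 1 of the 2 intact male supernatants. In the immunoprecipitates, endothelial and mural markers summed to 94.9 to 506 CPM against 63.5 to 86.6 CPM, and meningeal and choroid markers to 92.0 to 162 CPM against 50.8 to 82.9 CPM. Microglia markers there summed to 75.5 to 93.0 CPM against 56.8 to 63.2 CPM. The part of these cells in the levels was not tested.

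In females, Hspa5 differed by -0.58 ± 0.37 after ovariectomy in the immunoprecipitates and by -0.46 ± 0.24 in the supernatants (adjusted p = 0.994 and 0.653). Within libraries 11 to 30 these became 0.33 and -0.01, with 1 intact female pool, the one whose supernatant was high in Gnrh1. Sex in intact mice gave Hspa5 0.11 ± 0.35 and 0.18 ± 0.22 over all pools (adjusted p = 0.997 and 0.885). Within libraries 1 to 10, an alternative added after the data had been seen, it gave 0.31 and 0.33, and within 11 to 30 it gave 0.20 in both fractions, none of which passed.

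The wider secretory pathway was read from lists of genes chosen with earlier results of these data known. Translocation into the ER had the most genes called higher in the immunoprecipitate, 11 of 24 with 2 lower and a median log2 of 0.26. They were led by the channel subunits Sec61b (log2 1.30 ± 0.15) and Sec61g (1.09 ± 0.15) and the signal peptidase subunit Sec11a (0.82 ± 0.14), each higher in 13 of 13 pools, while Tram1 (-0.41 ± 0.12) and Srp68 (-0.18 ± 0.07) were lower. Genes of N-glycan transfer and the calnexin cycle gave 8 of 19 higher and 1 lower, with a median of 0.28. Magt1 (1.02 ± 0.14), Stt3a (0.77 ± 0.15) and Tusc3 (0.71 ± 0.12), all parts of the oligosaccharyltransferase, led them, and the mannosidase Man1b1 was lower (-0.55 ± 0.11).

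Other disulfide enzymes gave 7 of 18 higher and 2 lower, with a median of 0.21. Vkorc1 (0.81 ± 0.16), Txndc11 (0.72 ± 0.13) and the oxidase Ero1lb (0.68 ± 0.20) were higher, and the membrane-bound Tmx4 (-0.74 ± 0.11) and Tmx3 (-0.36 ± 0.13) lower. Other ER chaperones and co-chaperones gave 8 of 27 higher and 2 lower (median 0.08). Manf, a secreted ER protein, averaged 76.9 ± 35.4 CPM among the immunoprecipitates, against 41.9 ± 7.50 CPM among the supernatants, and was higher in 13 of 13 pools (0.83 ± 0.18). Mesdc2 (0.68 ± 0.12) and Cnpy2 (0.64 ± 0.15) were higher too, and the collagen chaperone Serpinh1 (-0.97 ± 0.25) and the BiP co-chaperone Dnajb9 (-0.30 ± 0.12) lower.

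ER-associated degradation gave 10 of 27 higher and 4 lower (median 0.13), with H47 (0.53 ± 0.14), Edem2 (0.46 ± 0.09) and Rnf139 (0.44 ± 0.13) higher and the conjugating enzyme Ube2j1 (-0.54 ± 0.10) and Edem3 (-0.40 ± 0.16) lower. The stress sensors and their regulators were split, 5 of 22 higher and 4 lower (median 0.05). Ppp1r15a (GADD34), the inducible phosphatase subunit that reverses the PERK signal, was higher in 13 of 13 pools (1.58 ± 0.09, 86.0 against 28.5 CPM), and its constitutive relative Ppp1r15b was lower (-0.71 ± 0.13). Bax (0.41 ± 0.09) and Atf6b (0.36 ± 0.10) were higher, and Tmbim6 (-1.32 ± 0.13) and Wfs1 (-0.37 ± 0.12) lower.

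Targets of ATF4 and DDIT3 gave 4 of 27 higher and 7 lower (median -0.12). Trib3, a target of both, was 2.97 ± 0.31 higher on the log2 scale (13.4 against 1.68 CPM), Bbc3 1.89 ± 0.14 and Eif4ebp1 0.90 ± 0.16, while Ddit4 (-1.60 ± 0.17), Gpt2 (-0.61 ± 0.13) and Tnfrsf10b (-0.50 ± 0.14) were lower. Cytosolic heat shock genes, kept for contrast, gave 7 of 23 higher and 3 lower (median 0.10). Hspe1 (0.77 ± 0.12), Hspb8 (0.48 ± 0.07) and Hsp90aa1 (0.37 ± 0.07) were higher, and Hspb1 (-0.52 ± 0.18), Hspa4 (-0.32 ± 0.10) and Hsph1 (-0.27 ± 0.07) lower. All of these counts stand against the 21.3% higher and 21.6% lower of the whole table, and all genes named here as higher or lower had an adjusted p of at most 0.0475.

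**Figure D5:**
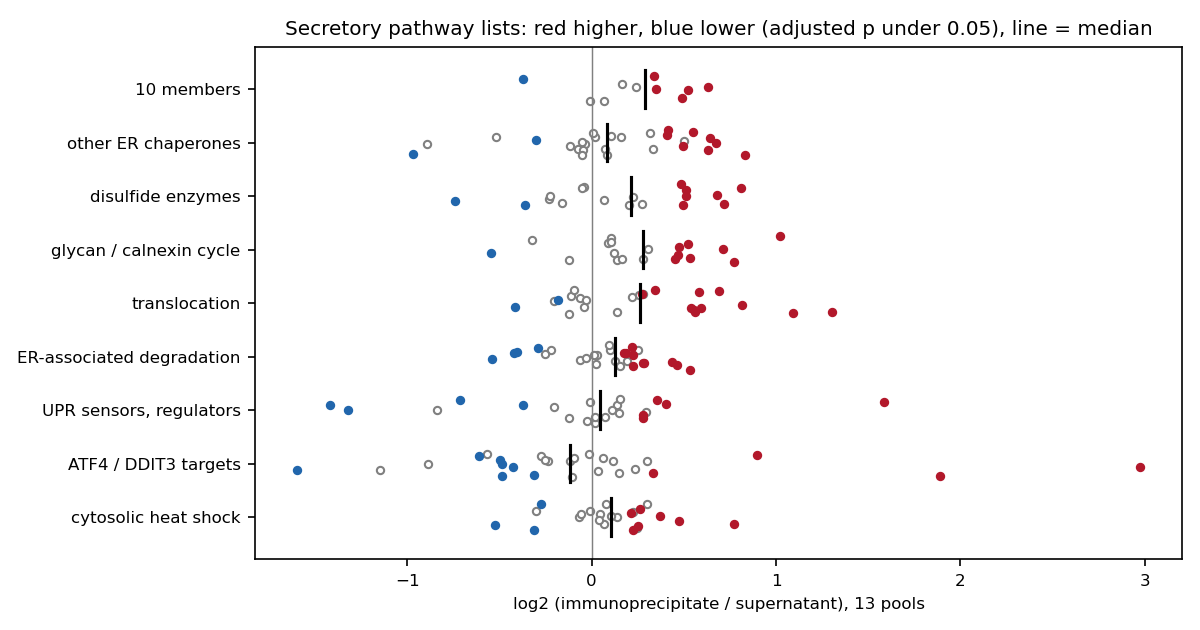
Log2 ratio of immunoprecipitate to supernatant over 13 pools for the genes of 9 lists, with genes called higher in red, called lower in blue, others open, and list medians as black lines. Translocation has 11 red of 24 genes, and targets of ATF4 and DDIT3 spread widest, from -1.60 to 2.97.

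The same lists were counted for the library numbering in intact mice, where 12.2% of all genes were called higher in the early supernatants and 8.20% in the early immunoprecipitates. In the early supernatants, 16 of 19 genes of the glycan and calnexin cycle, 14 of 18 disulfide enzymes and 17 of 27 other ER chaperones were higher and none was lower, with medians of 0.49, 0.49 and 0.52. In the early immunoprecipitates, 7 of 19, 7 of 18 and 10 of 27 were higher and none was lower, with medians of 0.71, 0.64 and 0.70. Translocation gave 12 higher and 1 lower of 24 in the supernatants and 11 higher and 0 lower in the immunoprecipitates (medians 0.27 and 0.65). ER-associated degradation gave 14 higher and 3 lower of 27, and 2 higher and 1 lower (medians 0.33 and 0.19), and the stress sensors and their regulators 9 higher and 1 lower of 22, and 4 higher and 0 lower (medians 0.28 and 0.21). Targets of ATF4 and DDIT3 gave 5 higher and 1 lower of 27 in the supernatants and 0 of 26 in the immunoprecipitates (medians -0.03 and -0.06), and cytosolic heat shock genes gave 0 higher and 5 lower of 23 and 2 higher and 1 lower of 23 (medians -0.10 and 0.00). All genes tested had medians of -0.01 in the supernatants and -0.07 in the immunoprecipitates.

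Genes with a profile like that of Hspa5 over the 26 libraries were ranked by the root mean square difference of log2 CPM, each gene centred on its own mean. Of 11530 genes with at least 5 CPM, Pdia3 was the nearest (0.138 log2 units) and Pdia6 the 5th (0.198). Among genes outside the 10, Arxes2 (0.171), Tmem66 (0.172), Tusc3 (0.188), Ecel1 (0.203) and P4hb (0.203) were nearest, where the median over all genes was 0.66. Pdia4 ranked 20, Hsp90b1 30, Xbp1 82 and Calr 157, and Canx, Atf4 and Ddit3 lay beyond rank 2000. The libraries share the numbering and the fraction, so this likeness describes these libraries only.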

How the data were processed

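TRAP-seq was done on 13 pools of mice, each giving an immunoprecipitate and a supernatant. In the table deposited by the authors, each library has a column of estimated counts per gene, and 1.46% of these values are not whole. Per the submitters' processing notes, the authors' tools included Cuffdiff 2.1.1 and Cufflinks, Bowtie2 2.1.0, TopHat2 2.0.9 and FastQC, with mm10; the gene annotation is not given in the sources used here. Per the labels' protocols, cDNA came from a SMART-Seq v4 kit; this kit does not mark the strand.

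The estimated counts were rounded. Total counts were 27217253 to 56668582 per library, all from reads without molecular identifiers. Tests used edgeR 4.0.16 (R 4.3.3): filterByExpr (minimum count 10, minimum total 15), TMM, two-sided quasi-likelihood F-test and Benjamini-Hochberg adjustment over all genes tested, called under 0.05. Enrichment was fitted on 26 libraries in 8 groups, and sex and gonadectomy on the 13 libraries of 1 fraction. CPM uses TMM-scaled library sizes. A positive log2 value means higher in the immunoprecipitate, after gonadectomy or in males. The common biological coefficient of variation was 0.560 in immunoprecipitates and 0.181 in supernatants, so supernatant values are more precise. DESeq2 1.42.0, limma 3.58.1 voom, other normalizations, no filter, a pool block, the library numbering and leaving out each library were alternatives.

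Both fractions of a pool come from the same mice. The deviations of both fractions from their group means correlated at 0.014 to 0.17 across genes, and 12 of 13 immunoprecipitates had their own pool's supernatant as the nearest within the group. Within a fraction, replicate numbers are shared only as numbers.

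Members and gene lists were chosen with earlier results of these data known. Of 306 list entries 305 were matched, 4 by synonym. The members were always named; from each list, up to 3 called genes per direction by size with at least 5 CPM, and the 5 genes nearest to Hspa5 in profile; 1 gene that this rule names is not reported here. Lists of ependymal, blood and other cells served as summed levels. On simulated counts with known changes in few of 16713 genes, the enrichment test recovered 69.2% of 2-fold changes. Promoter sequences are RefSeq's (GRCm38.p6, 10 of 10 members matched) and positions GENCODE vM21's; exon lengths are the union over transcripts.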

Additional observations from a re-analysis of the deposited data

Results flagged for a closer look

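The enrichment of Hspa5 and that of Pdia3 differed between the intact pools numbered 1 to 10 and those numbered 11 to 30, by the interaction of fraction and numbering in edgeR. The difference was 0.52 ± 0.12 on the log2 scale for Hspa5 (adjusted p = 0.0174) and 0.60 ± 0.15 for Pdia3 (adjusted p = 0.0251). For Hspa5, the log2 ratio of both fractions was 0.82, 0.85, 0.91 and 0.76 in the 4 early pools and 0.31, 0.33 and 0.32 in the 3 later intact pools. For Pdia3 the later ratios included the 1 negative pool of 13 (-0.07). That pool is replicate 2 of the intact females, whose supernatant held 1579 CPM of Gnrh1 (47.5 to 454 CPM in the other supernatants). Without it, the difference was 0.62 ± 0.15 for Hspa5 (adjusted p = 0.0414) and 0.64 ± 0.20 for Pdia3 (adjusted p = 0.0926). The early pools also held more mice, and the part of pool size in this was not tested. No library stood far from the rest of its group for any member in the 20 sets of 4 libraries that could be examined, those of intact males. Each set mixes libraries numbered 1 to 10 with libraries numbered 11 to 30. Where a member follows the numbering, the wide gap lies between early and later libraries, so this check could not single out 1 library.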

How the results depend on the processing

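No called member changed direction under any alternative. Counts of members called are followed by the share of all genes called in the same fit. Enrichment in intact females gave 4 members in libraries 1 to 10 with or without the replicate block (17.8% and 23.5%), 2 with the replicate block (18.3%) or a term for numbering (23.1%), and 0 in libraries 11 to 30 with or without the block (0.0921% and 0.155%) or from the compared groups alone (1.13%). Libraries 11 to 30 hold 1 intact female pool and called 27 of 17378 genes there, so that count of 0 says nothing about stability. Enrichment in intact males gave 7 with the numbering term (29.6%), 6 with the replicate block (25.9%, and 19.1% in libraries 1 to 10), 5 in libraries 1 to 10 (24%), 4 by DESeq2 (29.4%), and 0 in libraries 11 to 30 with or without the block (7.20% and 7.80%). Enrichment in ovariectomized females gave 2 with the block (6.14%), with the numbering term (8.70%) and in libraries 11 to 30 with or without the block (10.3% and 11.4%). In castrated males it gave 3 in libraries 11 to 30 (17%) or from the compared groups alone (19.9%), 2 with the block in libraries 11 to 30 (15.7%) and 1 with the numbering term (14.2%). Leaving out 1 library gave 0 to 4 members in intact females, 0 to 6 in intact males, and 0 to 4 for sex in gonadectomized supernatants, which otherwise gave 2 by DESeq2 (7.93%), 4 in libraries 11 to 30 (1.6%) and 7 with the numbering term (6.60%). No member was called lower in libraries 1 to 10, a count of 0. Over all pools the replicate block changed no call, with Hspa5 at 0.59 (adjusted p = 1.6e-05). The causes were not tested. Within fractions, the block by replicate number called no member.

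Groups held 3 or 4 pools, and whether library depth or the spread between pools limits these genes was not tested. In the intact groups that spread includes the difference between early and later libraries.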
